A study of Mus musculus with 12 samples.

Results

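The acute phase protein genes described here are Saa1, Saa2, Saa3, Saa4, Lcn2, Orm1, Orm2, Hp, Hpx and Serpina3n. They were chosen by name as liver proteins of the acute phase response, and their symbols were matched to the gene identifiers of the count files. They are 10 of 52636 annotated genes, and all 10 were among the 12453 genes that reached a mean of 12 counts per library. Each was read in the livers of 12 mice by prenatal diet and by whether the study recorded a liver weight for the mouse.

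The livers came from male C57Bl/6J mice at 16 weeks of age, 1 library per mouse. Dams of the 6 VDD-F1 mice ate a vitamin D deficient diet with added calcium gluconate before mating and through pregnancy, and dams of the 6 VDS-F1 mice ate a nutrient-matched sufficient diet over the same period. All sires ate a control diet, all dams were given the sufficient diet after delivery, and all offspring ate it from weaning, so none of the 12 mice was on a deficient diet when its liver was taken. RNA was taken from the left lateral lobe, and the labels do not say which mice were littermates, so p-values measure the spread between these mice only. Liver weights were recorded for VDD4, VDD5 and VDD6 and for VDS3, VDS4, VDS5 and VDS6, and not for VDD1, VDD2, VDD3, VDS1 and VDS2, where the mouse numbers of the supplement are taken to be those of the sample titles. What else set the 7 mice with a recorded weight apart from the other 5 is not given in the sources used here.

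The acute phase response is the change in the proteins that the liver secretes within hours of infection or injury. Interleukin-6, signalling through STAT3, and interleukin-1 and tumour necrosis factor, signalling through NF-kB and C/EBP factors, raise transcription of the positive acute phase genes in hepatocytes. In mice the serum amyloid A proteins are the major acute phase reactants, with haptoglobin, hemopexin, orosomucoid, lipocalin 2 and the antichymotrypsin family among the others, while albumin and transthyretin fall.

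The 4 serum amyloid A genes lie in 1 cluster of 42316 bases on chromosome 7 (chr7:46711998-46754313, GRCm38), where Saa1 and Saa2 run in opposite directions 8809 bases apart. Orm1 and Orm2 lie 14285 bases apart on chromosome 4. The promoter windows of the Saa genes are shown because the genes of this cluster had different patterns over the mice. Each window runs from 250 bases before to 50 after the start site in RefSeq (GRCm38.p6), is written 5′ to 3′ on the strand of its gene, and has in capitals the matches of the C/EBP core TTNNGNAA on either strand. The windows are chr7:46742931-46743230 (Saa1, minus strand), chr7:46751583-46751882 (Saa2, plus strand), chr7:46715627-46715926 (Saa3, minus strand) and chr7:46732554-46732853 (Saa4, minus strand).
Saa1: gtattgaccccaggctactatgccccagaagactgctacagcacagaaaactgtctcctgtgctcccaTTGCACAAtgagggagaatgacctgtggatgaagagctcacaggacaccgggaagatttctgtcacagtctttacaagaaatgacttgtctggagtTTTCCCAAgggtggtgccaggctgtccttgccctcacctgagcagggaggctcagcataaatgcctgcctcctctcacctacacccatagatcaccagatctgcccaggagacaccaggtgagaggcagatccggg
Saa2: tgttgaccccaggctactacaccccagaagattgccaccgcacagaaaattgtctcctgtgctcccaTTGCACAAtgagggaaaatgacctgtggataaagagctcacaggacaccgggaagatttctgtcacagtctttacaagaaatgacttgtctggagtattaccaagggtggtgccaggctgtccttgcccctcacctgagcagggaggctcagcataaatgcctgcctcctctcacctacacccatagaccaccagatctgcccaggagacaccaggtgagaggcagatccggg
Saa3: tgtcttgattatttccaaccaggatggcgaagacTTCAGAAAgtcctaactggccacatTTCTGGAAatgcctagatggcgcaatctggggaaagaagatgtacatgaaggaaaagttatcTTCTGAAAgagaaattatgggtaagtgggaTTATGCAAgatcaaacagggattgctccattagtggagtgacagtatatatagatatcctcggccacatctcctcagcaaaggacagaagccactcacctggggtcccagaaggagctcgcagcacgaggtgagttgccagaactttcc
Saa4: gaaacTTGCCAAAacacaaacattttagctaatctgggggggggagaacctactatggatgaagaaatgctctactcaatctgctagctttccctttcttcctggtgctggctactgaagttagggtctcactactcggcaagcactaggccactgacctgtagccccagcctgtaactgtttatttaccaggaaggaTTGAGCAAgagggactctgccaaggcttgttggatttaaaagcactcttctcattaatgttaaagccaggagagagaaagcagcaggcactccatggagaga

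The Saa1 and Saa2 windows were identical at 95.3% of aligned positions, and the other pairs of Saa windows at 43.3% to 50.9%. Saa1 held 2 C/EBP core matches, Saa2 held 1, Saa3 held 4 and Saa4 held 2. Windows of 8 of the 10 genes were at hand (not Orm1 or Hp), and all 8 held at least 1 match, as did 40.7% of 32851 mouse promoter windows of the same length. The STAT core TTCNNNGAA was in 0 of the 8 windows and in 8.3% of all windows. Letters that match a core are no evidence that a factor binds there.

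Between 14275793 and 20815066 fragments per library were counted on genes, and the 10 genes held 0.434% to 1.06% of them. Values are given as CPM, counts per 1000000 fragments on genes after TMM scaling. Hepatocyte markers were high in every liver, with a summed level of 84371 to 108846 CPM over 8 genes. In VDS6, 11.1% of fragments had no gene feature on the counted strand, against 2.52% to 4.94% in the other 11 libraries. Saa1 and Saa2 transcripts shared no stretch of 100 bases with another gene, whereas 6.95% of such stretches were shared between Orm1 and Orm2, so a small part of the Orm counts may be missing or be assigned to the other gene.

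Per kilobase of transcript, Hpx stood highest, at 2508 ± 768 CPM per kb (SD, n = 12), followed by Hp at 1637 ± 498 and Orm1 at 527 ± 123. Next came Serpina3n at 212 ± 109, Saa1 at 103 ± 148, Saa4 at 68.5 ± 25.1 and Saa2 at 54.8 ± 72.1 CPM per kb. Orm2 at 12.3 ± 4.77, Lcn2 at 11.8 ± 13.5 and Saa3 at 3.75 ± 1.56 CPM per kb were lowest. Hp exceeded Orm1, and Orm1 exceeded Serpina3n, in 12 of 12 mice, and Hpx exceeded Hp in 11. The order from Saa1 to Saa2 and from Orm2 to Lcn2 was not fixed, since Saa1 exceeded Saa4 in 5 of 12 mice and Orm2 exceeded Lcn2 in 6. The mean of Saa1 in this order was carried by 2 mice, as the plot of levels per transcript length shows.

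In the fit with diet adjusted, Lcn2 and Serpina3n were 7.55- and 2.42-fold lower in mice with a recorded liver weight than in mice without one, and Lcn2 had a log2-fold change of -2.15 in place of -2.92 without VDS1 and VDS2. Saa1 and Saa2 were also called lower in that fit, but their difference was unequal in the 2 diets and both calls were lost without VDS1 and VDS2 (edgeR, adjusted p = 0.142 and 0.106). The mean of Saa1 was 23.5 CPM with and 39.5 CPM without a recorded weight in VDD-F1, and 15.1 and 252 CPM in VDS-F1. For Saa2 these means were 16.6 and 28.1 CPM, and 8.23 and 131 CPM. The diet difference of Saa1 and Saa2 had opposite signs in the 2 sets of mice. Among mice with a recorded weight, Saa1, Saa2 and Hpx were higher and Saa4 and Serpina3n lower in VDD-F1 than in VDS-F1. In the other mice the fitted levels of Saa1 and Saa2 were 6.35- and 4.64-fold lower in VDD-F1 (edgeR, adjusted p = 0.308 for each), against 2 VDS-F1 mice that held the highest levels of both genes. Over all 12 mice 9 of the 10 genes had lower fitted levels in VDD-F1 by edgeR, and its adjusted p for each of the 10 was above 0.05. DESeq2's Wald test and limma voom each placed 2 of the 10 below 0.05.

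Genes were tested by the quasi-likelihood method of edgeR, p-values were adjusted after Benjamini and Hochberg over all 12453 genes, and errors of log2-fold changes are approximate standard errors computed from the F statistic. A DEG had an adjusted p below 0.05 and more than 1 unit of log2-fold change in either direction. The 5 comparisons share mice, so they are not independent of each other.

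For the set of mice with diet adjusted, 4 of the 10 were DEGs and all 4 were lower in mice with a recorded weight, where 0.891% of all genes were DEGs (0.61% lower). At an adjusted p below 0.05 alone, 5 of the 10 were lower, against 2.46% of all genes (1.56% lower). At an unadjusted p below 0.05 there were 8, 1 of them higher, against 13.9% of all genes (7.99% lower). The median log2-fold change of the 10 was -0.75, and that of all genes -0.01. The levels of the 2 sets did not overlap for Saa2, Lcn2, Hp and Serpina3n, which is 4 of the 10 and in each case lower with a recorded weight, against 1.8% of all genes (0.907% lower). Without VDS1 and VDS2, the 2 mice highest in Saa1, an alternative chosen after the data had been seen, 2 of the 10 had an adjusted p below 0.05, Lcn2 and Serpina3n.

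For the diet in the 7 mice with a recorded weight, 0 of the 10 were DEGs, against 4.3% of all genes. At an adjusted p below 0.05 alone, 5 of the 10 passed, 3 higher and 2 lower in VDD-F1, against 11% of all genes (5.85% higher and 5.12% lower). The same 5 had levels that did not overlap between the diets, against 23.4% of all genes. Their median log2-fold change was 0.28 over the 10 genes and 0.01 over all genes.

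For the diet in the 5 mice without a recorded weight, 0 of the 10 had an adjusted p below 0.05 by edgeR, as for 0% of all genes. At an unadjusted p below 0.05 there were 5, all lower in VDD-F1, against 3.79% of all genes (1.73% lower). DESeq2's Wald test gave an adjusted p below 0.05 for 2 of the 10, the fit without a filter on low counts for 3 and limma voom for 0. Levels did not overlap for 7 of the 10, all lower in VDD-F1, against 18.5% of all genes (9.5% lower), and the median log2-fold change was -0.68 against 0.01.

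Over all 12 mice, 0 of the 10 had an adjusted p below 0.05 for the diet by edgeR, where 0.0402% of all genes did, and 2 by DESeq2's Wald test and 2 by limma voom, tools by which the DEGs among all genes numbered 253 and 252 in place of 5. At an unadjusted p below 0.05 there were 2, Hpx higher and Saa4 lower, against 15.8% of all genes, a share near this background. The median log2-fold change was -0.38, against 0 over all genes.

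The test of the difference between the 2 diet differences, an interaction of diet and set, gave 2 DEGs among the 10, against 0.0803% of all genes (0.0642% with the same sign), and the same 2 at an adjusted p below 0.05 alone, against 0.0883%. With 1 mouse left out the number of DEGs among all genes was 3 (without VDD5) to 244 (without VDD2), where it was 10 with all mice. These were Saa1 and Saa2, which ranked 1 and 2 by p among all genes tested. The VDS-F1 mice without a recorded weight are VDS1 and VDS2 alone, so this test rests on them and cannot be made without them. At an unadjusted p below 0.05 there were 6, all with a higher diet log2-fold change in the mice with a recorded weight, against 9.01% of all genes (4.24% higher).

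**Figure D1:**
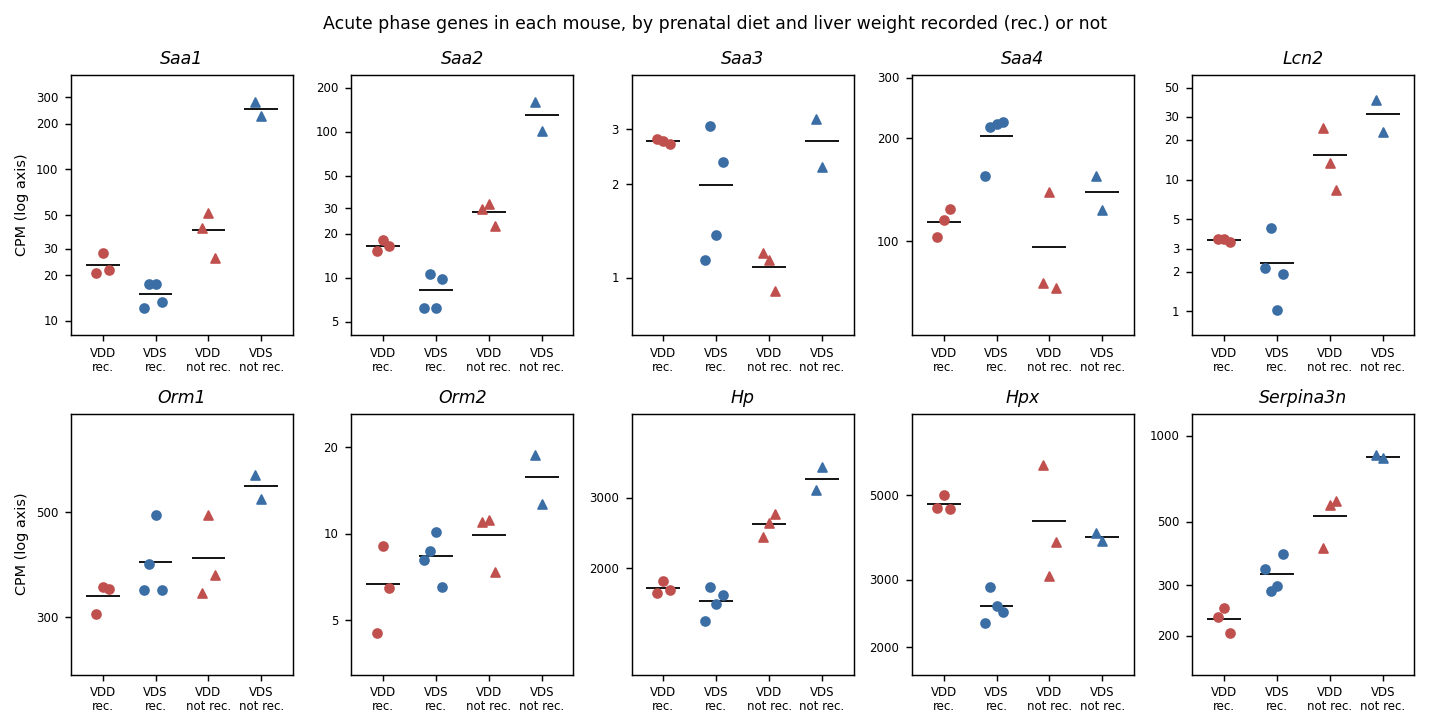
CPM (log axis) of each acute phase gene in each mouse, by prenatal diet (VDD-F1 in red, VDS-F1 in blue) and by liver weight recorded (circles) or not (triangles), with black bars for group means. For Saa1 and Saa2 the 2 blue triangles stand far above all other mice, while the blue circles are lowest.

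Saa1 encodes an acute phase apolipoprotein that replaces apolipoprotein A-I on high density lipoprotein in inflammation. Among mice with a recorded weight, its level was 27.9, 20.8 and 21.7 CPM in VDD4, VDD5 and VDD6 and 17.4, 17.5, 13.4 and 12.2 CPM in VDS3 to VDS6. Among the other mice, it was 51.8, 40.8 and 26.1 CPM in VDD1, VDD2 and VDD3, and 225 and 279 CPM in VDS1 and VDS2. VDS-F1 thus held both the 4 lowest and the 2 highest mice, over a 22.9-fold range, against a 2.49-fold range in VDD-F1. The diet log2-fold change of VDD-F1 over VDS-F1 was 0.63 ± 0.16 in mice with a recorded weight (SE, edgeR, adjusted p = 0.0275). It was -2.67 ± 0.29 in the others (edgeR, adjusted p = 0.308), where Saa1 ranked 1 by p among all genes tested, and it passed 0.05 in DESeq2's Wald test (2.26e-13), without a filter on low counts (4.31e-14) and without VDD2 (0.00919). The difference between these was 3.30 ± 0.32 in the fit of all mice (edgeR, adjusted p = 0.00151). Over all 12 mice the diet log2-fold change was -1.58 ± 0.76 (edgeR, adjusted p = 0.333), but -0.79 with the set as a covariate and -0.03 by limma voom, and without VDS1 and VDS2 it turned to 1.06 (adjusted p = 0.0872). The call in mice with a recorded weight was lost without VDD4 (adjusted p = 0.111), VDD5 (0.0517), VDD6 (0.0548) or VDS5 (0.0642).

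Saa2 encodes a second acute phase apolipoprotein, close in sequence to that of Saa1. Its level was 18.1, 15.2 and 16.4 CPM in VDD4 to VDD6 and 6.19, 10.7, 9.86 and 6.22 CPM in VDS3 to VDS6. It was 32, 29.6 and 22.7 CPM in VDD1 to VDD3, and 101 and 161 CPM in VDS1 and VDS2. The order of the 4 group means was the same as for Saa1, and each of the 4 groups stood apart from the rest without overlap. The log2-fold change for the diet was 1 ± 0.20 in mice with a recorded weight (edgeR, adjusted p = 0.00743), at the fold threshold but not above it, and this call held with each of the 7 mice left out. In the others it was -2.22 ± 0.25 (edgeR, adjusted p = 0.308), ranking 2 by p and passing 0.05 in DESeq2's Wald test (4.57e-11), without a filter (3.98e-12) and without VDD2 (0.00919). The difference between these was 3.22 ± 0.33 (edgeR, adjusted p = 0.00151). Over all mice it was -1.14 ± 0.74 (edgeR, adjusted p = 0.483), but -0.42 with the set as a covariate and 0.38 by limma voom, and without VDS1 and VDS2 it was 1.43 (adjusted p = 0.0381). Of the fragments on Saa1 and Saa2 together, Saa2 took between 26.2% (95% exact binomial interval 21.7% to 31.2%, counting error only) in VDS3 and 46.5% (42.6% to 50.5%) in VDD3. In VDS1 and VDS2 it took 31% (29.9% to 32.2%) and 36.6% (35.5% to 37.7%), within the range of the other mice.

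For the adjusted difference between the sets, the log2-fold change of recorded over not recorded was -2.47 ± 0.50 for Saa1 and -2.41 ± 0.48 for Saa2 (edgeR, adjusted p = 0.0204 and 0.0198). Both values depended on VDS1 and VDS2, without which they were -0.76 and -0.76 (adjusted p = 0.142 and 0.106). Both calls were also lost without VDS3, VDS4 or VDS5, where the adjusted p was 0.0501 to 0.06.

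Saa4 encodes the constitutive serum amyloid A of high density lipoprotein, which is not an acute phase reactant in the way of Saa1. Its level was 115, 103 and 124 CPM in VDD4 to VDD6 and 219.8, 216, 223 and 155 CPM in VDS3 to VDS6. Without a recorded weight it was 139, 75.6 and 73.1 CPM in VDD1 to VDD3, and 123 and 155 CPM in VDS1 and VDS2. Here VDS1 and VDS2 were not the highest mice, and VDS-F1 exceeded VDD-F1 without overlap only where a weight was recorded. The diet log2-fold change was -0.83 ± 0.13 in mice with a recorded weight (edgeR, adjusted p = 0.00186), a call that held with each of the 7 mice left out. It was -0.54 ± 0.31 in the others (edgeR, adjusted p = 0.999), and the difference between the sets was -0.29 ± 0.33 (adjusted p = 0.871). Over all 12 mice Saa4 was 1.73-fold lower in VDD-F1, with a log2-fold change of -0.79 ± 0.18 (edgeR, adjusted p = 0.0855). That value passed 0.05 in DESeq2's Wald test (adjusted p = 0.0036), in limma voom (0.0147), without a filter on low counts (0.0449), without VDD1 (0.0235), and without VDS1 and VDS2 together (0.0454).

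Saa3 encodes a serum amyloid A that in mice is made largely outside hepatocytes, in macrophages and fat. It had only 12 to 59 counts per library, so its level is imprecise. It was 2.75, 2.79 and 2.7 CPM in VDD4 to VDD6, 1.37, 3.07, 2.36 and 1.14 CPM in VDS3 to VDS6, 1.14, 1.2 and 0.904 CPM in VDD1 to VDD3, and 2.27 and 3.25 CPM in VDS1 and VDS2. VDD1 to VDD3 were low and close together, and VDD4 to VDD6 were close together at a higher level. The set difference was 0.42 ± 0.36 (edgeR, adjusted p = 0.683), and the diet difference differed between the sets by 1.79 ± 0.54 (edgeR, adjusted p = 0.31).

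**Figure D2:**
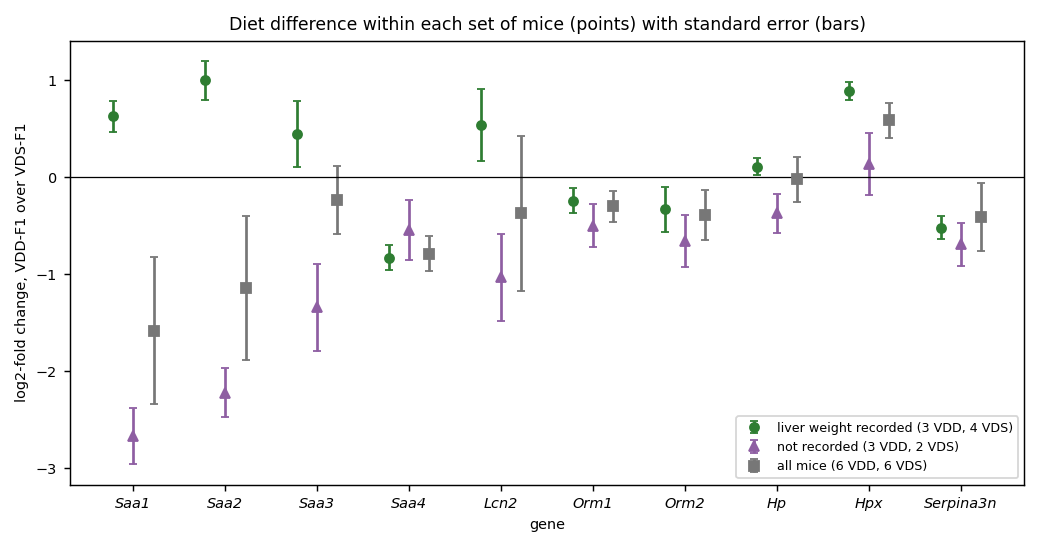
Log2-fold change of VDD-F1 over VDS-F1 for each acute phase gene (y axis) in mice with a recorded liver weight (green circles), in mice without one (purple triangles) and in all mice (grey squares), with bars for 1 standard error. Saa1 and Saa2 are above 0 in green and below -2 in purple, while Saa4 and Serpina3n are below 0 and Hpx above 0 in all 3 fits.

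Hpx encodes hemopexin, the plasma protein that binds free haem and carries it to the liver. Its level was 5022, 4627 and 4608 CPM in VDD4 to VDD6 and 2557, 2883, 2474 and 2310 CPM in VDS3 to VDS6. Where no weight was recorded it was 3078, 5999 and 3764 CPM in VDD1 to VDD3, and 3802 and 3987 CPM in VDS1 and VDS2. The diets were far apart where a weight was recorded and overlapped where it was not, with VDD2 the highest of all mice. The log2-fold change for the diet was 0.89 ± 0.09 in mice with a recorded weight (edgeR, adjusted p = 0.000116), 1.86-fold, and the adjusted p stayed between 0.000214 and 0.00138 with each of the 7 mice left out. In the other mice it was 0.14 ± 0.32 (edgeR, adjusted p = 0.999), and the difference between the sets was 0.76 ± 0.29 (adjusted p = 0.441). This difference passed 0.05 without VDD2, at 1.09 (adjusted p = 0.00489), and in limma voom, at 0.98 (adjusted p = 0.046). Over all 12 mice it was 0.59 ± 0.18 (edgeR, adjusted p = 0.137), and it passed 0.05 in DESeq2's Wald test (0.0318), in limma voom (0.0228) and without VDD1 (0.0488).

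Hp encodes haptoglobin, which binds haemoglobin released from red blood cells. Its level was 1863, 1735 and 1772 CPM in VDD4 to VDD6 and 1634, 1799.5, 1715 and 1482 CPM in VDS3 to VDS6. It reached 2600.5, 2401 and 2737 CPM in VDD1 to VDD3, and 3563 and 3124 CPM in VDS1 and VDS2. All 5 mice without a recorded weight exceeded all 7 with one, and the diets overlapped in the latter. The set log2-fold change was -0.76 ± 0.11 (edgeR, adjusted p = 0.00222), 1.69-fold, and it held with each of the 12 mice left out, but without VDS1 and VDS2 together it was -0.53 (adjusted p = 0.0537). For the diet it was 0.11 ± 0.09 in mice with a recorded weight (adjusted p = 0.476) and -0.37 ± 0.20 in the others (adjusted p = 0.999, both from edgeR).

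Lcn2 encodes lipocalin 2, which binds the iron carriers of bacteria and is made by hepatocytes and neutrophils. Its level was 3.57, 3.52 and 3.36 CPM in VDD4 to VDD6 and 1.03, 4.27, 1.94 and 2.15 CPM in VDS3 to VDS6. The remaining mice had 13.3, 24.6 and 8.28 CPM in VDD1 to VDD3, and 23.1 and 40.2 CPM in VDS1 and VDS2. The lowest mouse without a recorded weight, VDD3, stood above the highest mouse with one, VDS4. The set log2-fold change was -2.92 ± 0.37 (edgeR, adjusted p = 0.00138), the largest of the 10 genes, and its call held with each of the 12 mice left out. Without VDS1 and VDS2 together it was -2.15 ± 0.45 (adjusted p = 0.0375). For the diet it was 0.54 ± 0.37 in mice with a recorded weight (adjusted p = 0.404), -1.03 ± 0.45 in the others (adjusted p = 0.999) and -0.37 ± 0.80 over all mice (adjusted p = 0.868, all from edgeR). Without a filter on low counts the value in the others passed 0.05 (adjusted p = 0.0168), as did its difference from that in mice with a recorded weight, at 1.56 (adjusted p = 0.00114). The sign over all mice turned without VDS2 (0.51).

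Neutrophils, a source of lipocalin 2, were read by their markers. The summed level over 10 genes was 0.55 to 12 CPM in mice with a recorded weight and 1.58 to 7.93 CPM in the others, 1 of the 10 passed the filter, and that gene, Csf3r, had a set log2-fold change of -0.45 ± 0.45 (edgeR, adjusted p = 0.748).

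Serpina3n encodes a serine protease inhibitor of the antichymotrypsin family. Its level was 249, 232 and 204 CPM in VDD4 to VDD6 and 297, 286, 385 and 341 CPM in VDS3 to VDS6. The level was higher, at 573, 404 and 589 CPM, in VDD1 to VDD3, and 836 and 853 CPM in VDS1 and VDS2. The 4 groups did not overlap, and VDS-F1 was above VDD-F1 within each set. The set log2-fold change was -1.28 ± 0.11 (edgeR, adjusted p = 5.15e-05), ranking 7 by p among all genes tested, and it held with each mouse left out and without VDS1 and VDS2 together. The diet log2-fold change was -0.52 ± 0.12 in mice with a recorded weight (edgeR, adjusted p = 0.0145) and -0.69 ± 0.22 in the others (edgeR, adjusted p = 0.999). The difference between these was 0.17 ± 0.23 (edgeR, adjusted p = 0.902), and the call in mice with a recorded weight was lost without VDD5 (0.0503) or VDD6 (0.0667). Over all 12 mice, where the sets were mixed, the diet log2-fold change was -0.41 ± 0.35 (edgeR, adjusted p = 0.601).

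Orm1 and Orm2 encode orosomucoids, plasma carriers of basic drugs and lipids. The level of Orm1 was lowest at 305, at a median of 346 and highest at 494 CPM in the 6 VDD-F1 mice, and 343, 441 and 599.6 CPM in the 6 VDS-F1 mice. That of Orm2 was 4.52, 8.22 and 11.2 CPM in VDD-F1 and 6.53, 9.42 and 18.7 CPM in VDS-F1. The diets overlapped for both genes over all mice, and VDS2 was the highest mouse for each. The log2-fold change for the diet over all mice was -0.30 ± 0.16 for Orm1 and -0.39 ± 0.26 for Orm2 (edgeR, adjusted p = 0.379 and 0.5). Their set log2-fold changes were -0.39 ± 0.12 and -0.73 ± 0.19 (edgeR, adjusted p = 0.136 and 0.06), and DESeq2's Wald test placed both below 0.05 (0.0437 and 0.0108). Orm2 also passed in limma voom (0.0381) and without a filter on low counts (0.00476).

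Other positive acute phase genes, a list of 20 that all passed the filter, were compared in the same fits. In the set comparison 18 of the 20 had lower fitted levels in mice with a recorded weight, 5 with an adjusted p below 0.05 (1.56% of all genes lower) and 4 of these as DEGs (0.61% of all genes lower), and the median log2-fold change was -0.43. The DEGs were Apcs (serum amyloid P, a pentraxin that is a main acute phase reactant of mice) at -1.35 ± 0.19, Fgl1 (fibrinogen-like 1, secreted by hepatocytes) at -1.25 ± 0.29, Lrg1 (leucine-rich alpha-2-glycoprotein) at -1.13 ± 0.15 and Serpina3m (a paralog of Serpina3n) at -1.04 ± 0.18. Their adjusted p-values from edgeR were 0.00222, 0.0399, 0.00175 and 0.00715. For Fgl1 the sets overlapped in VDD-F1, at 115 to 157 CPM with and 110.2 to 278 CPM without a recorded weight. In VDS-F1 its sets were far apart, at 68.9 to 109 and 315 to 380.2 CPM, so its set difference rests largely on VDS1 and VDS2. The fifth gene was Steap4, a metalloreductase gene, at -0.59 ± 0.12 (edgeR, adjusted p = 0.0233). Apcs was at 22.1 to 42.1 CPM in mice with a recorded weight and at 46 to 90.7 CPM in the others, without overlap.

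For the diet in mice with a recorded weight, 5 of these 20 were higher and 3 lower in VDD-F1 at an adjusted p below 0.05, against 5.85% and 5.12% of all genes. Apcs and Fgl1 were higher, at 0.63 ± 0.13 and 0.63 ± 0.16, and Lrg1 and Serpina3m lower, at -0.70 ± 0.14 and -0.68 ± 0.09 (edgeR, adjusted p = 0.0106, 0.0286, 0.0096 and 0.000517). Apcs and Fgl1 thus had the sign of Saa1 there, and Lrg1 and Serpina3m that of Serpina3n. The metallothionein gene Mt1, whose product binds zinc, was higher at 1.19 ± 0.21 (edgeR, adjusted p = 0.0039) and was the 1 DEG of the list in that comparison, where 4.3% of all genes were DEGs. For the interaction of diet and set, 0 of the 20 had an adjusted p below 0.05 by edgeR and 7 an unadjusted p below it, against 9.01% of all genes. Other tools were not run on the lists.

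Negative acute phase genes, a list of 8, had a median set log2-fold change of -0.05, with 0 at an adjusted and 2 at an unadjusted p below 0.05 by edgeR, both lower, against 7.99% of all genes. For the diet in mice with a recorded weight, 3 of the 8 were higher in VDD-F1 at an adjusted p below 0.05, against 5.85% of all genes. Alb, the gene of albumin, was among them at 0.36 ± 0.08, as was Trf, the gene of transferrin, at 0.32 ± 0.09 (edgeR, adjusted p = 0.0128 and 0.0327).

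The cytokines that raise these genes were barely measured. Of 8 ligand genes 2 passed the filter, Il1a and Il1b, and the sum of all 8 was 1.14 to 8.44 CPM. Il1b was at 0.275 to 1.82 CPM in mice with a recorded weight and at 0.442 to 6.56 CPM in the others, with a set log2-fold change of -1.37 ± 0.57 (edgeR, adjusted p = 0.288). Il6 and Il22 had 0 counts in all 12 libraries. Of 14 receptor and signalling genes, 2 had an adjusted p below 0.05 for the set, and both were lower in mice with a recorded weight, against 1.56% of all genes. These were Stat3, the transcription factor activated by interleukin-6, at -0.50 ± 0.11, and Tnfrsf1a, a receptor of tumour necrosis factor, at -0.42 ± 0.08 (edgeR, adjusted p = 0.0343 and 0.0177). Stat3 was at 111 to 129 CPM in mice with a recorded weight and at 122 to 201 CPM in the others, with overlap. The overlap lay in VDD-F1, at 119 to 129 CPM with and 122 to 194 CPM without a recorded weight. In VDS-F1 the sets were apart, at 111 to 121 and 188 to 201 CPM. Tnfrsf1a was at 62.9 to 76.8 and 81 to 105 CPM, without overlap. The smallest p-values of this list for the diet over all mice were those of Tlr4, the lipopolysaccharide receptor, and Il1rap, a subunit of the interleukin-1 receptor, with log2-fold changes of 0.81 and -0.33 (edgeR, adjusted p = 0.109 and 0.125).

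Of 10 transcription factors and feedback inhibitors, 0 had an adjusted p below 0.05 for the set by edgeR and 3 an unadjusted one, all lower, against 7.99% of all genes. Socs3, a feedback inhibitor of the interleukin-6 pathway, was at 3.52 to 6.11 CPM in mice with a recorded weight and at 4.84 to 17.5 CPM in the others, with a log2-fold change of -0.79 ± 0.27 (edgeR, adjusted p = 0.179). In mice with a recorded weight Hnf4a, which encodes a nuclear receptor that keeps hepatocyte genes active, was lower in VDD-F1 at -0.46 ± 0.11 (edgeR, adjusted p = 0.0198).

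Glucocorticoids act with the cytokines on acute phase genes. Of 7 glucocorticoid response genes, 3 were higher in VDD-F1 among mice with a recorded weight at an adjusted p below 0.05, against 5.85% of all genes, and the other 4 had lower fitted levels, so that the median log2-fold change was -0.38. Among the 4 were Zbtb16 at -1.35 ± 0.43 and Fkbp5 at -0.98 ± 0.37 (edgeR, adjusted p = 0.0714 and 0.116), both with an unadjusted p below 0.05. Sgk1, a kinase gene, was higher at 1.59 ± 0.19 and Dusp1, a phosphatase gene, at 1.34 ± 0.27 (edgeR, adjusted p = 0.000367 and 0.00775). Sgk1 was also 1 of the 10 DEGs of the interaction, at 2.77 ± 0.44 (edgeR, adjusted p = 0.0321). Beside Saa1, Saa2 and Sgk1, those were Fst, Serpina1e, Tff3, Tns2, Sik1, Acot2 and Zfp36.

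**Figure D3:**
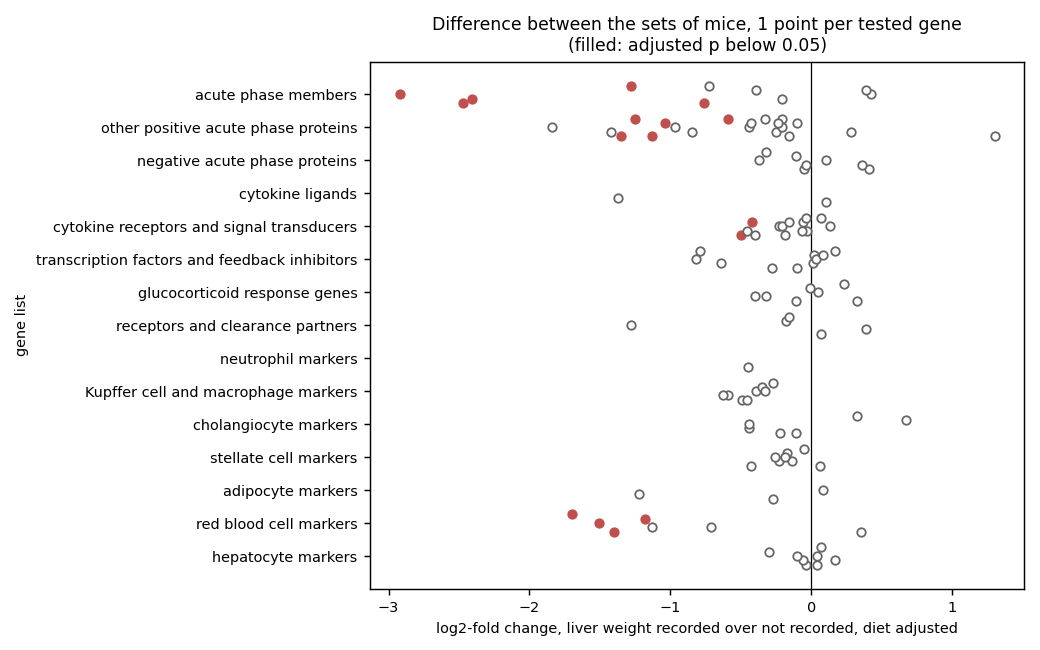
Log2-fold change of mice with over mice without a recorded liver weight, diet adjusted (x axis), for each tested gene of each list (y axis, 1 point per gene), with filled points where the adjusted p from edgeR was below 0.05. Filled points below 0 are found among the acute phase genes, the other positive acute phase genes, 2 signalling genes and the haemoglobin genes.

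Markers of other cell types were read beside these results, and in bulk liver fewer cells of a type and less RNA per cell cannot be told apart. The summed level of 8 red blood cell markers was 237 to 489 CPM in mice with a recorded weight and 525 to 1381 CPM in the others, without overlap, with VDS1 the highest and VDS2 next. Of 7 that passed the filter, 4 were DEGs and lower in mice with a recorded weight, against 0.61% of all genes: Hbb-bs at -1.70 ± 0.29, Hba-a1 at -1.51 ± 0.29, Hbb-bt at -1.40 ± 0.29 and Hba-a2 at -1.18 ± 0.25 (edgeR, adjusted p = 0.00671, 0.0161, 0.0213 and 0.0256). Slc4a1 was at -0.71 ± 0.51 (edgeR, adjusted p = 0.608). Alas2, the erythroid enzyme of haem synthesis, had the opposite sign at 0.35 ± 0.16 (edgeR, adjusted p = 0.324), with means of 141 CPM in mice with a recorded weight and 110.5 CPM in the others. None of the 8 was at 0 counts in all libraries, and the part of blood in the set differences of the acute phase genes was not tested.

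Kupffer cell and macrophage markers had lower fitted levels for 8 of 8 genes in mice with a recorded weight, with a median set log2-fold change of -0.42, 0 at an adjusted p below 0.05 by edgeR and 2 at an unadjusted one, against 7.99% of all genes lower. Their summed level was 136 to 274 CPM in mice with a recorded weight and 180.2 to 350.4 CPM in the others. For the diet in mice with a recorded weight 7 of the 8 had lower fitted levels in VDD-F1, 4 of them at an adjusted p below 0.05 (5.12% of all genes), with Timd4, a receptor of resident macrophages, at -1.13 ± 0.22 (edgeR, adjusted p = 0.00698). Of 7 receptors and clearance partners of these proteins, 5 were tested and 3 were lower at an adjusted p below 0.05 in the same comparison. Cd163, the macrophage receptor that takes up haptoglobin bound to haemoglobin, was at -3.28 ± 0.29 (edgeR, adjusted p = 3.6e-05). In the same mice Hpx was higher, and Hp had an adjusted p of 0.476. The part of macrophages in these values was not tested.

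Among mice with a recorded weight, 2 of 6 tested cholangiocyte markers and 3 of 8 stellate cell markers were higher in VDD-F1 at an adjusted p below 0.05, against 5.85% of all genes. The other 4 cholangiocyte markers had higher fitted levels that did not pass, and of the other 5 stellate cell markers 2 had higher and 3 lower fitted levels. Epcam, a surface protein of bile duct cells, was at 1.32 ± 0.29 and Col1a1, a collagen gene, at 2.67 ± 0.23 (edgeR, adjusted p = 0.0139 and 3.1e-05). Their part in the diet differences of Saa1, Saa2 and Hpx was not tested. Of the adipocyte markers 3 of 8 were tested, and 1 of these, Cfd, was lower at an adjusted p below 0.05, at -2.02 ± 0.55 (edgeR, adjusted p = 0.0387), against 5.12% of all genes. The other 2, Pck1 and Adrb3, were at 0.40 ± 0.23 and -0.44 ± 0.36 (edgeR, adjusted p = 0.3 and 0.482). Of these 8 adipocyte markers 2 had 0 counts in all libraries, and the values allow no statement on adipocytes. Of the 8 hepatocyte markers, 1 was higher and 2 lower in VDD-F1 at an adjusted p below 0.05 in these mice (5.85% and 5.12% of all genes). Of the other 5, 1 had a higher and 4 had lower fitted levels. Among those that passed was Apoa2 at -0.48 ± 0.09 (edgeR, adjusted p = 0.00578).

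For the 4 genes with the largest spread of log2 CPM, the genes with the most similar pattern over the 12 mice were found by Pearson's r among the tested genes other than the 10 themselves, given as a description. The 12 points share the 2 sets of mice, so that any gene which differs between the sets takes part of that difference into its r, and r over the 7 mice with a recorded weight is given beside it. Itih3, a heavy chain of the inter-alpha-trypsin inhibitor and a member of the list of other acute phase genes, was the gene outside the 10 most like Saa1 (r = 0.962 over 12 and 0.914 over 7 mice) and Saa2 (0.971 and 0.881). Fosl2, a subunit of AP-1, came next of the genes outside the 10 for both (0.952 and 0.763 for Saa1, 0.939 and 0.608 for Saa2). The third was Fgl1 for Saa1 (0.905 and 0.56) and Fam187b for Saa2 (0.933 and 0.86).

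Outside the 10, Lcn2 was most like Fam187b (r = 0.958 over 12 and 0.653 over 7 mice), Plxnb1 (0.922 and 0.787) and Ldha, a lactate dehydrogenase gene (0.921 and 0.786). Serpina3n was most like Gulo, the last enzyme of vitamin C synthesis (0.954 and 0.873), C4b, a complement component (0.953 and 0.861), and Fign (0.941 and 0.933). The 3 genes so found for Serpina3n were other genes than those found for Saa1 and Saa2.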

How the data were processed

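Liver RNA of 12 mice was sequenced after ribosomal depletion. The authors removed adapters and low-quality reads, used STAR to align to mm10 with GENCODE M15, and deposited its raw gene counts, unstranded and per strand, without normalization. The reverse-strand count was used, which held 92.7% to 95.8% of stranded counts. Symbols and positions came from GENCODE M21 on GRCm38 (52403 of 52636 identifiers matched).

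Genes that reached a mean of 12 counts were fitted with edgeR 4.0.16 in R 4.3.3 (TMM, quasi-likelihood, legacy form) for the 5 comparisons. Standard errors were computed as the absolute log2-fold change over the square root of F. Levels per kilobase used 1 representative transcript per gene, and log2 CPM used a prior count of 2. Alternatives were DESeq2 1.42.0 size factors and its Wald test (the study's methods name DESeq2), limma 3.58.1 voom with sample quality weights, other filters, the unstranded count, a replicate block, the set as a covariate, and each mouse left out. The fit without VDS1 and VDS2 was added after the data had been seen. Promoters and motifs were read with Python 3.11.15 and Biopython 1.88, and figures drawn with matplotlib 3.10.9. The scripts were tested on simulated data. The 10 genes, the gene lists and the sets of mice were chosen with earlier results of these data known.

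Beyond the 10 genes, the text names every gene of a list that was a DEG in any comparison, otherwise the 2 of the list with the smallest p for the diet over all mice, and the 3 genes most like each of the 4 most variable members, plus Steap4, Alas2, Slc4a1, Pck1, Adrb3, Zbtb16, Fkbp5, Stat3, Tnfrsf1a, Il6, Il22 and the DEGs of the interaction, which were added after their values were seen. Some listed genes are not reported here.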

Additional observations from a re-analysis of the deposited data

Results flagged for a closer look

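The diet difference of Saa1 and of Saa2 differed between the 2 sets of mice, higher by 3.3 and 3.22 on the log2 scale with a recorded weight than without (edgeR's interaction test, adjusted p = 0.00151 for each). In each alternative both stayed below an adjusted p of 0.05, except Saa2 with the replicate block (0.0754).

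In VDS-F1 mice with a recorded weight, VDS6 had a log2 CPM of 7.28 for Saa4, far below VDS3, VDS4 and VDS5 at 7.78, 7.75 and 7.8. It was the 1 sample so placed in 30 tests (each of the 10 genes in the 6 VDD-F1 mice, the 6 VDS-F1 mice and the 4 VDS-F1 mice with a recorded weight), where chance gives about 1 test in 20. VDS6 was also the library with 11.1% of fragments without a gene feature on the counted strand, and the part of this in its Saa4 level was not tested.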

How the results depend on the processing

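Of the 10 genes, the number with an adjusted p below 0.05 for the diet over all 12 mice was 0 by edgeR. It was 2 by DESeq2's Wald test, 2 by limma voom, 1 without a filter on low counts, 2 without VDS1 and VDS2, and 0 to 2 with 1 mouse left out. DEGs among all genes numbered 5, and 253, 252, 70, 21 and 38 by DESeq2, by voom, without a filter, with the set as a covariate and without VDS1 and VDS2, and 0 to 260 with 1 mouse left out (260 without VDD1). In mice with a recorded weight the number was 5, and 3 to 5 with 1 mouse left out. In the others it was 0, and 2 by DESeq2, 3 without a filter and 0 to 2 with 1 mouse left out, where a lone VDS-F1 mouse is assumed to vary like VDD-F1. DEGs there were 0, and 25 and 154 by DESeq2 and without a filter. For the set of mice it was 5, 7 by DESeq2, 6 by voom, 6 without a filter, 2 without VDS1 and VDS2, and 3 to 6 with 1 mouse left out, and DEGs were 111, or 202 without a filter and 68 to 178 with 1 mouse left out (178 without VDD2, 68 without VDD6). For the interaction it was 2, 3 by voom (with Hpx), 3 without a filter (with Lcn2) and 2 to 3 with 1 mouse left out, and DEGs were 10, and 97, 53 and 289 by DESeq2, voom and no filter, and 3 to 244 with 1 mouse left out (244 without VDD2).

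For the diet over all mice Saa1 moved from -1.58 to -0.79 with the set as a covariate, -0.33 with the replicate block and -0.03 by voom. Signs turned as follows. For the diet over all mice, voom gave 0.38 for Saa2, 0.40 for Lcn2 and 0.07 for Hp, and with 1 mouse left out Hp ran from -0.12 to 0.16 and Lcn2 from -0.94 to 0.51. Without VDS1 and VDS2, Saa1 was 1.06, Saa2 1.43, Lcn2 1.98, Hp 0.40 and Serpina3n 0.20. In mice without a recorded weight Hpx was -0.09 by voom and -0.19 to 0.33 with 1 mouse left out. In the set comparison Hpx was 0.15 without VDS1 and VDS2. The interaction of Saa4 was -0.47 to 0.07 with 1 mouse left out. Where no construction of the alternative shows it, the cause was not tested.

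The sources do not say that equal replicate numbers pair mice. The correlation of deviations of same-numbered mice was -0.0762 to 0.103, which was not tested and cannot exclude a pairing. With the replicate block, the diet over all mice gave 0.08 for Saa2, 0.25 for Lcn2 and 0.04 for Hp, and 17 DEGs. The set comparison gave 0 of the 10 genes below 0.05, 0 DEGs, and 0.17, 0.10 and 0.04 for Orm1, Orm2 and Hpx, since only number 3 marks mice of both sets. The interaction gave 1 of the 10 and 2 DEGs. In mice with a recorded weight Serpina3n moved to an adjusted p of 0.0511.

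The 2 VDS-F1 mice without a recorded weight limit the precision of every value that rests on them, and Saa3, with 12 to 59 counts per library, allows no firm statement.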
